A study of Rattus norvegicus with 60 samples.

Results

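The genes described here are 38 genes of protein folding, secretion and stress in the endoplasmic reticulum, the compartment in which secreted and membrane proteins are folded. Each was matched by its symbol to a probe set that carries that symbol alone. 37 of the 38 were found, each with 1 probe set, among 18166 named genes in all, and Derl2 was not analysed here. Genes were matched by name and not by any measured value, but the list was chosen with earlier results of these data known.

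RNA came from 20 haemophilia A rats. Haemophilia A is the inherited lack of clotting factor VIII, and every group carried it. In 11 rats a bleed had been induced in the left knee 24 h before tissue was taken, and 9 other rats had undergone a sham procedure. Synovial tissue and the popliteal lymph node of both sides gave 11 arrays each from the bled rats, and the right side of the sham rats gave 7 knee and 9 node arrays. There was no group of rats without haemophilia. The bled side was always the left, and contralateral and sham samples the right, so bleeding, injury of the knee and body side cannot be told apart.

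Expression is given on the log2 scale of the deposited values, where a difference of 1 is a 2-fold change. A gene was called higher or lower at an adjusted p under 0.05 in limma, with Benjamini-Hochberg adjustment over all 36685 probe sets. Each probe set has its own response, so values are compared between groups and never between genes. The labelled tissues differed in their markers as their names say: the mean of 4 B cell genes lay between 11.00 and 11.53 in the nodes and between 4.73 and 6.18 in the knees, and that of 8 fibroblast and synovial lining genes between 10.86 and 12.27 in the knees and between 8.66 and 9.64 in the nodes. The sham knee of rat C5 and the sham nodes of rats C9 and C2 stood apart, with median correlations to their group of 0.957, 0.961 and 0.980. C5 was the lowest sham knee for 26 of the 37 genes, so results that rest on the sham arrays are given with and without these 3 arrays where the call differs. Bled knee K3 (0.977) and contralateral knee K10 (0.979) correlated least within their groups and were left out only singly.

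Proteins enter the endoplasmic reticulum through the Sec61 channel, lose their signal peptide, and are folded by chaperones such as BiP (Hspa5) and by the disulfide isomerases. Chains that fail to fold are sent back to the cytosol for degradation. When unfolded chains build up, 3 sensors, Ire1 (Ern1), Perk (Eif2ak3) and Atf6, start the unfolded protein response. Atf6 and the Ire1 product Xbp1 act on chaperone and secretion genes, whereas Perk acts through Atf4, whose targets include Ddit3 (CHOP), Trib3, Chac1, Asns and Ppp1r15a. Atf4 is also made when amino acids or haem are short, a branch known as the integrated stress response. Plasma cells and activated fibroblasts are known for a large secretory apparatus.

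The first comparison asks how the bled knee differed from the other knee of the same rats. In the bled knees the listed folding and secretion genes were higher almost throughout, and the listed Atf4 and Ddit3 stress genes were not. A wider set of Atf4 and integrated stress targets, given below, went both ways. Of 28 chaperone, disulfide, disposal and translocation genes, 26 rose and none fell, with a median log2 difference of 0.71. Of 9 sensor and stress genes, Atf6 rose, Ddit3 fell and 7 were not called, with a median of −0.0045. Over all 37 genes 27 were called higher and 1 lower, with a median of 0.52, where 19.5% of all probe sets were called higher, 15.2% lower and the median of all probe sets was 0.00. All 27 genes called higher were higher in the bled knee of 11 of 11 rats, and in 24 genes the 11 bled and 11 contralateral knees did not overlap. How many of all probe sets did either was not counted, so these 2 counts have no share to be set against. The same holds for the statements on overlap by role and gene below.

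**Figure D1:**
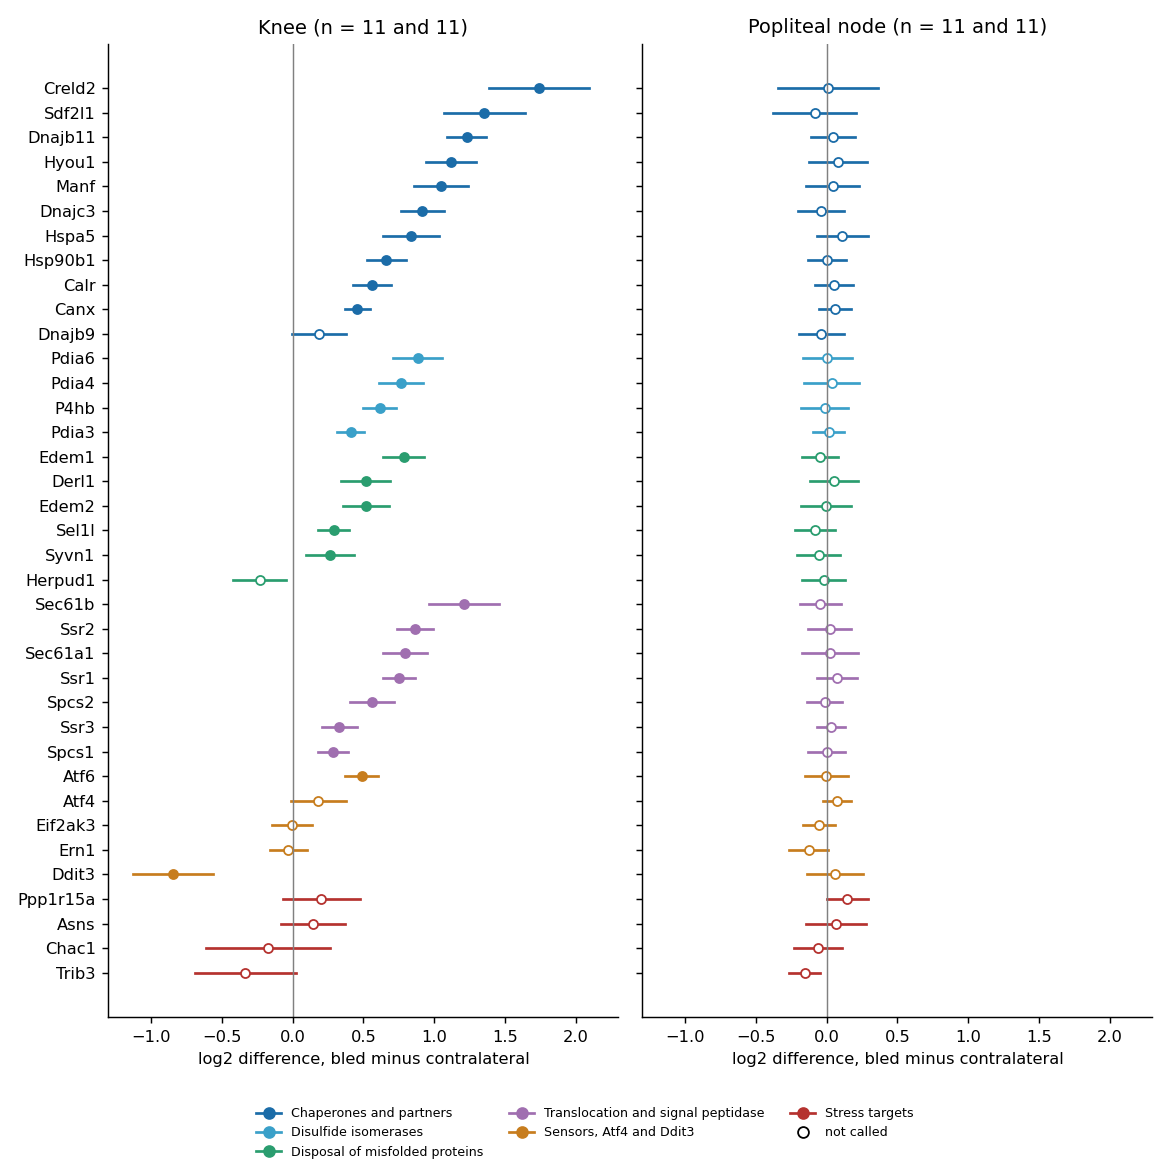
Log2 difference between the bled and the contralateral side for the 37 genes, by role, in the knee (left) and the popliteal node (right), n = 11 arrays per side. Points are group differences, bars their 95% intervals, and filled points are called by limma. In the knee the folding and secretion genes lie to the right of 0 apart from Herpud1 and Ddit3 lies at −0.84, whereas all node values lie between −0.15 and 0.15.

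Chaperones and their partners made up the largest role, and 10 of 11 rose. Creld2, which encodes a secreted product of the unfolded protein response with disulfide exchange activity, changed most (probe set 17831510). It measured 8.75, 9.14 and 9.70 (lowest, median and highest) in the bled knees, 6.87, 7.29 and 8.01 in the contralateral knees and 6.44, 7.61 and 8.04 in the sham knees. Every bled knee was thus above every other knee, and the contralateral and sham knees shared one range. The bled knees were 3.34-fold higher than the contralateral (95% interval 2.62 to 4.26, log2 difference 1.74 ± 0.17 SE, adjusted p = 7.22e-10).

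Sdf2l1, an endoplasmic reticulum protein that works with BiP and the J-domain protein Dnajb11, showed the next largest difference (probe set 17667237). Values were 8.76, 9.07 and 9.26 in the bled, 7.27, 7.55 and 8.23 in the contralateral and 6.31, 7.64 and 7.85 in the sham knees. The bled knees again lay above all others, and the difference from the contralateral knees was 1.35 ± 0.14 (2.56-fold, adjusted p = 1.51e-09). Its partner Dnajb11, an Hsp40 co-chaperone that brings clients to BiP, measured 9.96, 10.22 and 10.34 against 8.77, 9.03 and 9.16 in the contralateral knees (1.23 ± 0.07, adjusted p = 4.65e-15). The gap between the highest contralateral and the lowest bled knee exceeded the range within either group.

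BiP itself, the Hsp70 chaperone of the compartment and the protein that holds the sensors inactive, is encoded by Hspa5 (probe set 17761597). It measured 12.53, 12.75 and 13.02 in the bled, 11.56, 11.84 and 12.37 in the contralateral and 11.70, 12.02 and 12.36 in the sham knees. The lowest bled knee (rat K10) was above the highest contralateral knee (rat K2), and K2 was the highest rat on both sides. The difference was 0.84 ± 0.10 (1.79-fold, 95% interval 1.56 to 2.05, adjusted p = 1.51e-08).

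The other chaperones followed with smaller or like differences. Hyou1, a nucleotide exchange factor of BiP, rose by 1.12 ± 0.09 and Manf, a small secreted protein that binds BiP, by 1.05 ± 0.09. Dnajc3, a co-chaperone known to restrain Perk, rose by 0.91 ± 0.07. Hsp90b1 (Grp94), the Hsp90 of the compartment, rose by 0.66 ± 0.07. Calr and Canx, the lectin chaperones that hold glycoproteins while they fold, rose by 0.56 ± 0.06 and 0.46 ± 0.04. In none of these did a bled knee overlap a contralateral one. Dnajb9 (ERdj4), which keeps Ire1 inactive, measured 8.14, 8.62 and 9.12 against 8.26, 8.41 and 8.68, with overlapping groups, and was not called (0.19 ± 0.09, adjusted p = 0.138), although it was called (0.24, adjusted p = 0.039) without the bled knee of rat K8. It was also called (0.25, adjusted p = 0.0469) with the mean of the skeletal muscle genes as a covariate.

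Several of these promoters hold a known element of the unfolded protein response, and the sites are shown as a description with no test. The 38 genes were listed for their part in folding and stress, so their promoters are no neutral sample of all promoters. The endoplasmic reticulum stress element (ERSE) is CCAAT, any 9 bases, then CCACG, on either strand, and is bound by NF-Y with Atf6 or Xbp1. The RefSeq promoter table for the assembly GRCr8, with 250 bases before and 50 after each gene's start, held 31 of the 38 genes. No entry was found for Manf, Pdia3, Pdia6, Derl1, Sec61a1, Ern1 and Atf6. ERSE was present in 6 of the 31 promoters, against 22 of 33469 promoters of that length in the table (0.0657%) and 0.087% of 21851 protein-coding ones. The sites of 5 genes are shown. Not every chaperone promoter held it, and those of Sdf2l1 and Dnajb11, which were among the genes with the largest differences, had no exact match in the window. In each line below the element is in capitals with 10 bases on each side, 5′ to 3′ on the strand of the gene, and an element on the opposite strand reads CGTGG, 9 bases, ATTGG.
Hspa5: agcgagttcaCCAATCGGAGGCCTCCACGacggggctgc
Hsp90b1, upstream site: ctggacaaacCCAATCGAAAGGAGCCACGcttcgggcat
Hsp90b1, downstream site: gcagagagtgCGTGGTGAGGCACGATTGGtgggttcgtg
Calr: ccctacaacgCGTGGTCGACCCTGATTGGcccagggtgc
Dnajc3: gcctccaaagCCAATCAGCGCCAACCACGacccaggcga
Creld2: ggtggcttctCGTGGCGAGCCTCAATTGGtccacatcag

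The Hspa5 site lies at chr3:38452963-38453001 on the plus strand with its element at −43 to −25 from the start. Those of Hsp90b1, a gene of the minus strand, lie at chr7:23012441-23012479 (−176 to −158) and chr7:23012337-23012375 (−72 to −54). The sites of genes of the plus strand are Calr at chr19:40213125-40213163 (−232 to −214), Dnajc3 at chr15:102432524-102432562 (−133 to −115) and Creld2 at chr7:121789229-121789267 (−145 to −127). In Calr, Creld2 and the downstream Hsp90b1 site the element itself is on the strand opposite to the gene. The 5 genes shown rose in the bled knee by 0.56 (Calr) to 1.74 (Creld2). Sdf2l1 and Dnajb11, with no exact ERSE in the window, rose by 1.35 and 1.23. The Dnajb11 window holds another element of the response, ERSE-II, given below. The presence of the letters is a description of these windows and no measure of binding.

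Other elements of the response were found in fewer promoters, in members of both classes. ERSE-II, which is ATTGG, any base, then CCACG, was in the promoters of Dnajb11 and Herpud1 (0.0508% of all promoters). The amino acid response element TTGCATCA, the kind of site at which Atf4 acts, was in those of Herpud1 and Chac1 (0.795% of all). The sequence TGACGTGG, an Xbp1 element, was in none of the 31 windows and in 0.595% of all. Overlap among the elements was not removed, but no member site was counted for more than 1 of them. The sites are given here with their element in capitals.
Dnajb11, ERSE-II: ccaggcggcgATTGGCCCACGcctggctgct
Herpud1, ERSE-II: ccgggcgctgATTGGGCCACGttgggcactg
Herpud1, amino acid response element: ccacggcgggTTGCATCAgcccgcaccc
Chac1, amino acid response element: ttctccgccgTTGCATCActcctgctag

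On GRCr8 these lie at chr11:91672790-91672820 (Dnajb11, minus strand, −10 to 1), chr19:10614811-10614841 and chr19:10614874-10614901 (Herpud1, minus strand, −124 to −114 and −184 to −177) and chr3:126795954-126795981 (Chac1, plus strand, −167 to −160). Dnajb11 rose by 1.23 in the bled knee. Herpud1, which holds both kinds of element, and Chac1 were not called.

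The disulfide isomerases, which make and shuffle the disulfide bonds of secreted proteins, rose in 4 of 4. Pdia6 measured 11.23, 11.43 and 11.56 in the bled and 10.20, 10.55 and 10.92 in the contralateral knees (0.88 ± 0.08, 1.84-fold, adjusted p = 3.47e-10). Pdia4 measured 10.38, 10.66 and 11.06 against 9.73, 9.93 and 10.26 (0.77 ± 0.08, adjusted p = 1.17e-09). P4hb, which is both an isomerase and the beta subunit of collagen prolyl hydroxylase, rose by 0.61 ± 0.06, and Pdia3, the partner of calnexin and calreticulin, by 0.41 ± 0.05. The bled and contralateral knees were separate for each of the 4 genes.

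Translocation and signal peptide cleavage rose in 7 of 7 genes. Sec61b, a small subunit of the channel (probe set 17798715), measured 11.31, 11.58 and 11.73 in the bled, 9.86, 10.38 and 11.01 in the contralateral and 9.47, 10.48 and 10.64 in the sham knees. The highest contralateral value was still below every bled knee, and the difference was 1.21 ± 0.12 (2.31-fold, adjusted p = 8.49e-10). Ssr2, Ssr1 and Ssr3, subunits of the translocon-associated protein complex, rose by 0.86 ± 0.06, 0.75 ± 0.05 and 0.33 ± 0.06. The pore subunit Sec61a1 rose by 0.79 ± 0.08. Spcs2 and Spcs1 of the signal peptidase rose by 0.56 ± 0.08 and 0.29 ± 0.05. Ssr3 and Spcs1, with the smallest differences of the role, were the only 2 of the 7 in which bled and contralateral knees overlapped.

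Disposal of misfolded proteins rose in 5 of 6 genes. Edem1, which reads the trimmed sugars of chains to be degraded, measured 10.78, 10.95 and 11.12 in the bled and 10.01, 10.11 and 10.37 in the contralateral knees (0.79 ± 0.07, 1.72-fold, adjusted p = 9.35e-11). Its relative Edem2 and the membrane protein Derl1 rose by 0.52 ± 0.08 each. Sel1l and Syvn1 (Hrd1), which form the ubiquitin ligase of the pathway, rose by 0.29 ± 0.05 and 0.26 ± 0.08. Syvn1 was not called with quantile normalization (0.20, adjusted p = 0.0549). Herpud1, a short-lived ligase component that is also an Atf4 target, went the other way in 8 of 11 rats: it measured 8.97, 9.32 and 9.87 in the bled and 9.45, 9.61 and 9.79 in the contralateral knees (−0.23 ± 0.09, adjusted p = 0.0517). The bled knees of rats K1, K2 and K3 were the 3 that exceeded the other knee, and without any 1 of those, or without contralateral knee K10 or sham knee C1 or C5, Herpud1 was called lower (adjusted p = 0.0121 to 0.043).

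**Figure D2:**
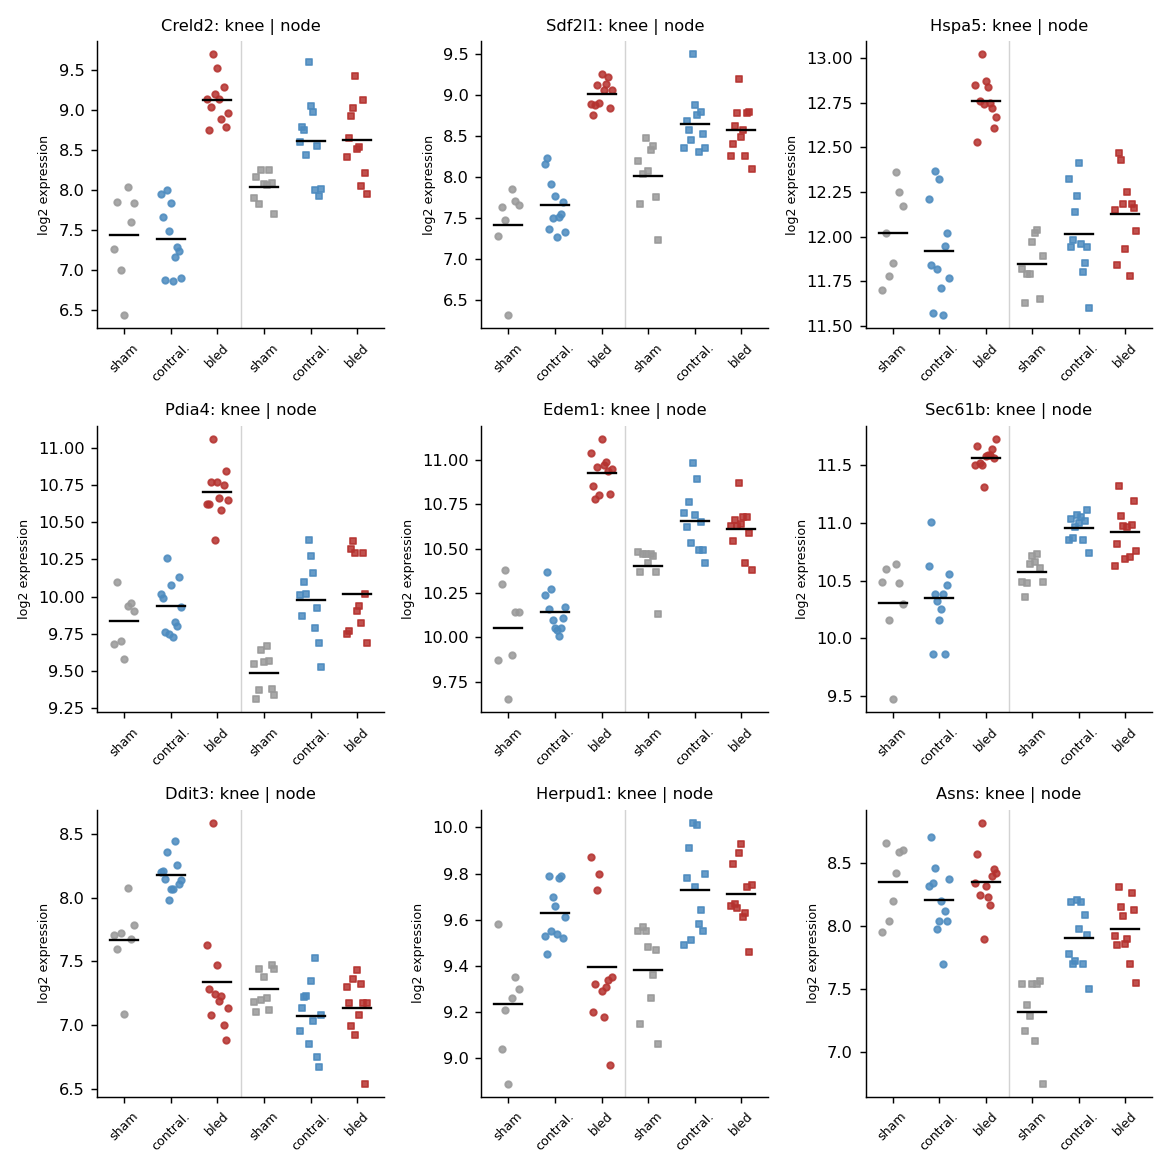
Log2 expression of 9 of the genes in each array, with circles for knees and squares for nodes, in the order sham, contralateral and bled, and with lines at the group means (n = 7, 11 and 11 knees; 9, 11 and 11 nodes). The 11 bled knees stand above all other knees for Creld2, Sdf2l1, Hspa5, Pdia4, Edem1 and Sec61b, and 1 bled knee of Ddit3 at 8.59 stands far from the other 10.

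Of the sensors Atf6 alone was called. Atf6, a transcription factor freed by cleavage in the Golgi, measured 10.57, 10.75 and 10.92 in the bled and 9.93, 10.32 and 10.41 in the contralateral knees (0.49 ± 0.06, 1.40-fold, adjusted p = 1.7e-08), and the groups did not overlap. Ern1 and Eif2ak3 were not called, with differences of −0.03 (95% interval −0.16 to 0.10) and −0.00 (−0.14 to 0.14). These are RNA levels, and cleavage, phosphorylation and splicing of the sensors and of Xbp1 were not measured.

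Ddit3, the gene of the transcription factor CHOP, was the 1 gene that fell (probe set 17828625). In the bled knees it measured 6.88, 7.23 and 8.59, in the contralateral knees 7.98, 8.15 and 8.45 and in the sham knees 7.09, 7.71 and 8.08. The value of 8.59 came from rat K2, and the other 10 bled knees lay between 6.88 and 7.63, below every contralateral knee. The difference was −0.84 ± 0.14 (1.79-fold lower, 95% interval 1.48 to 2.18, adjusted p = 6.04e-06, lower in 10 of 11 rats), and it was −0.97 (adjusted p = 6.42e-10) without the bled knee of K2. The contralateral knees lay on the whole above the sham knees, by 0.51 ± 0.15 (adjusted p = 0.0828), and this difference was called (adjusted p = 0.00516) without bled knee K2.

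Bled knee K2 also held the highest value of Atf4 (11.40), Trib3 (7.30), Ppp1r15a (9.48) and Asns (8.82). Trib3, a pseudokinase induced by Atf4 and CHOP, was 5.32, 5.67 and 7.30 in the bled and 5.50, 6.11 and 7.01 in the contralateral knees, and K2 was the 1 rat of 11 with a higher bled knee. Its difference of −0.33 ± 0.18 was not called (adjusted p = 0.159), and without K2 it was −0.48 and called lower (adjusted p = 0.00353). With the mean of the plasma cell genes as a covariate Trib3 was called lower at −1.04 (adjusted p = 0.0293), but not with Derl3 left out of that mean. The mean of 6 neutrophil genes in bled knee K2 was 9.91, the highest of the 11, whose median was 8.35. Its part in these values was not tested.

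The remaining genes of the branch showed overlapping sides. Atf4, the transcription factor itself, measured 10.56, 10.65 and 11.40 in the bled and 10.34, 10.64 and 10.74 in the contralateral knees, and was higher in 10 of 11 rats without being called (0.18 ± 0.09, adjusted p = 0.149). It was called (adjusted p = 0.0431) when rat was a fixed block and, at 0.31 (adjusted p = 0.00289), when the mean of the skeletal muscle genes was a covariate. The mean of those muscle genes ranged from 6.43 to 12.87 in bled knees, with a median of 8.19. In contralateral knees it ranged from 6.72 to 13.03, with a median of 11.74. Ppp1r15a (Gadd34), the phosphatase subunit that reverses the Perk signal, differed by 0.20 ± 0.13 (adjusted p = 0.281), and by 0.35 (adjusted p = 0.0293) with the same covariate. Asns, which makes asparagine, differed by 0.14 ± 0.11 (adjusted p = 0.367). Chac1, a glutathione-degrading enzyme, differed by −0.17 ± 0.21 (adjusted p = 0.619).

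Means over the genes of a role show the same split rat by rat. The 11 chaperone genes had a higher mean in the bled knee of every rat, by 0.62 (rat K10) to 1.19 (rat K5) with a median of 0.97. Within-rat differences were 0.41 to 0.90 for the disulfide isomerases, 0.42 to 0.92 for translocation and 0.21 to 0.43 for disposal, all above 0 in 11 of 11 rats. For the mean of the 3 sensors with Atf4 and Ddit3, which holds Atf6 that rose and Ddit3 that fell, they ran from −0.23 to 0.31, with 4 of 11 above 0, and for the stress targets from −0.38 to 0.83, with 6 of 11 above 0. Rat K2 gave the highest difference of the last 2 roles, and rat K10 the lowest of the first 4. The contralateral knee of K10 was the highest of its group for 14 genes, and its neutrophil and cell cycle means (8.57 and 8.16) were above the group medians of 6.40 and 5.50. Whether its levels come from those cells was not tested.

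**Figure D3:**
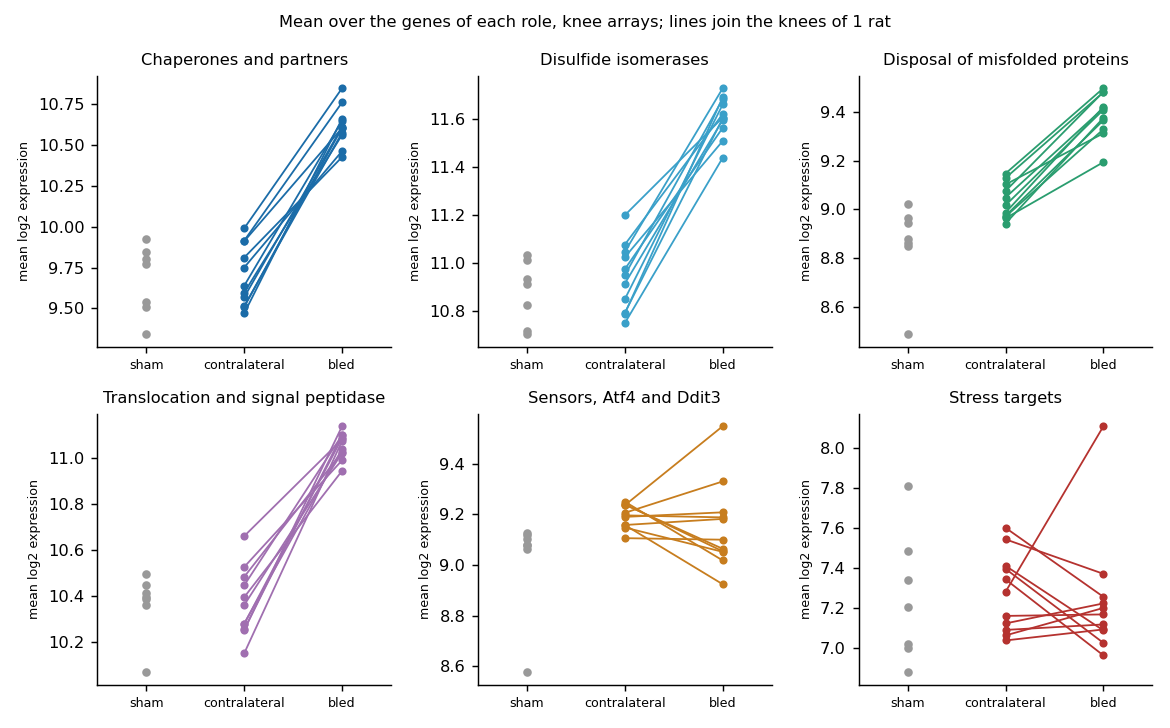
Mean log2 expression over the genes of each role in every knee array, with lines joining the contralateral and the bled knee of 1 rat (11 rats) and grey points for the 7 sham knees. All lines climb for the 4 folding and secretion roles, with chaperone differences of 0.62 to 1.19, whereas the lines of the 5 genes of sensors, Atf4 and Ddit3 and those of the stress targets cross and 1 rat, K2, climbs steeply.

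Other genes of folding and secretion were for the larger part higher in the bled knee. Of 20 further translocation and glycosylation genes 18 rose and none fell (median 0.55), led by Sec61g (1.24 ± 0.12), the third channel subunit, and Ostc (1.21 ± 0.08), a subunit of the oligosaccharyltransferase. The signal peptidase genes Sec11c and Spcs3 rose by 1.11 ± 0.07 and 1.00 ± 0.09. Of 17 further folding genes 10 rose and 2 fell (median 0.35), with Fkbp11 (1.36 ± 0.12), a prolyl isomerase, the oxidase Ero1a (1.13 ± 0.12), the folding sensor Uggt1 (1.10 ± 0.07) and the glucosidase Mogs (1.01 ± 0.07). Disposal and export gave 10 higher and 2 lower of 15 (median 0.49). Its largest changes were those of the COPII coat genes Sec23b (0.86 ± 0.07) and Sec24d (0.71 ± 0.07), the cargo receptor gene Mcfd2 (0.76 ± 0.08) and the segregase gene Vcp (0.59 ± 0.05).

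Regulators of the response were divided, with 7 of 15 higher and 3 lower (median 0.12). Eif2s1, the translation factor that Perk phosphorylates, rose by 1.02 ± 0.07 and the death gene Bcl2l11 (Bim) by 0.52 ± 0.12. The caspase gene Casp12 fell by 1.17 on the log2 scale (SE 0.10) and Mbtps1, the protease that cleaves Atf6, fell by 0.54 (SE 0.05). Xbp1, named here after its value was seen, rose by 0.52 ± 0.07 (adjusted p = 4.36e-07). Its probe set does not tell spliced from unspliced RNA.

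The wider set of Atf4 and integrated stress targets did not move one way. Of 22 such genes 11 rose, 8 fell and 3 were not called (median 0.08). The largest were Aldh1l2 (2.46 ± 0.23, 5.51-fold) and Mthfd2 (1.91 ± 0.12, 3.76-fold), enzymes of mitochondrial folate metabolism, and the amino acid transporter genes Slc7a5 (2.15 ± 0.12) and Slc7a11 (1.93 ± 0.14). Named after their values were seen, Phgdh, the first enzyme of serine synthesis, fell by 1.49 (SE 0.14), Nupr1 fell by 1.40 (SE 0.17), Atf5 fell by 1.31 (SE 0.12) and Atf3 was not called (−0.04 ± 0.19, adjusted p = 0.922). All 12 aminoacyl-tRNA synthetases, which charge tRNA for translation, rose, with a median of 0.77 and Gars1 (1.02 ± 0.06), Tars1 (0.98 ± 0.07), Yars1 (0.90 ± 0.07) and Nars1 (0.87 ± 0.06) in front.

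**Figure D4:**
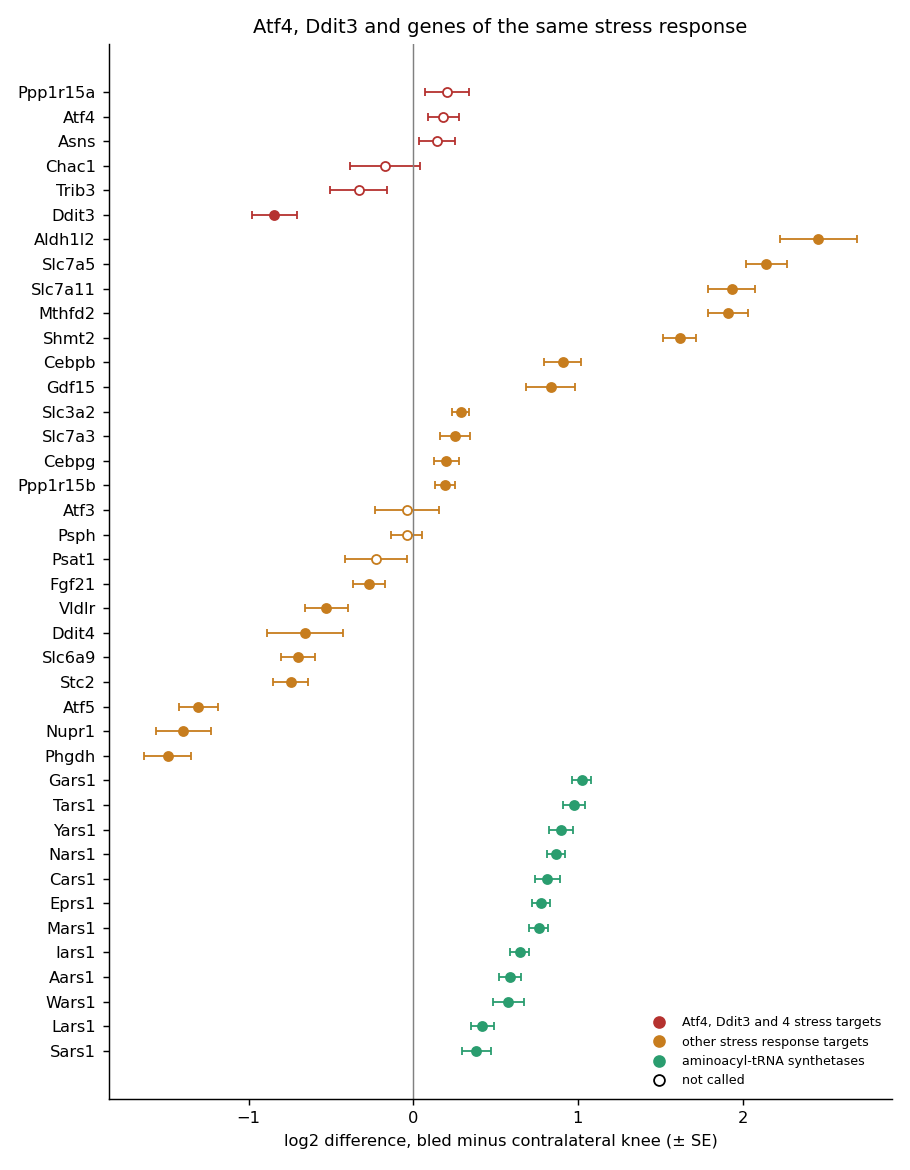
Log2 difference between bled and contralateral knee (± SE, n = 11 and 11) for Atf4, Ddit3 and 4 stress targets, 22 further targets of the same response and 12 aminoacyl-tRNA synthetases, with filled points for called genes. The further targets spread from −1.49 to 2.46 on both sides of 0, whereas the synthetases all lie to the right of it.

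Chaperones of other compartments were higher too. In the cytosol 9 of 12 rose and none fell (median 0.49), with Hsph1 (1.18 ± 0.16), Tcp1 (0.79 ± 0.06), Hspa4 (0.70 ± 0.05) and Dnaja1 (0.58 ± 0.10), and in mitochondria 6 of 8 rose and none fell (median 0.39), with Hspd1 (1.18 ± 0.10), Hspe1 (0.84 ± 0.09), Hspa9 (0.49 ± 0.08) and Clpp (0.40 ± 0.07). Collagen processing, which takes place in the endoplasmic reticulum of fibroblasts, gave 7 higher and 3 lower of 13: P4ha3 (1.00 ± 0.28), P3h1 (0.78 ± 0.08) and Plod2 (0.76 ± 0.15) rose, and Fkbp9 fell by 1.09 (SE 0.08).

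Markers of other cells moved in the same knees. The bled knees were higher than the contralateral in 6 of 6 cell cycle genes, 6 of 7 T cell genes, 4 of 6 neutrophil, 4 of 6 macrophage and 4 of 8 plasma cell genes, and lower in 6 of 6 adipocyte, 3 of 3 endothelial and 6 of 8 fibroblast and synovial lining genes. The neutrophil mean was 7.51 to 9.91 in bled and 6.05 to 8.57 in contralateral knees, the adipocyte mean 8.21 to 9.89 against 11.10 to 11.76, and the plasma cell mean 6.46 to 7.00 against 5.81 to 6.54. In such bulk tissue a change in the number of cells of a type and a change in the RNA per cell cannot be told apart. With the plasma cell mean as a covariate 22 of the 37 genes were called higher in the bled knee, where 10.5% of all probe sets were. The ranges of this mean overlap little between the sides, so this covariate cannot separate plasma cell content from the bleed. Edem2, Sel1l, Syvn1, Ssr3 and Spcs1 were no longer called, at adjusted p = 0.231, 0.118, 0.693, 0.183 and 0.0503. With the skeletal muscle mean as a covariate 30 genes were higher and 1 lower, where 18.6% of all probe sets were higher and 15.5% lower. The genes added were Dnajb9, Atf4 and Ppp1r15a. The median of this muscle mean was 8.19 in bled and 11.74 in contralateral knees, with overlapping ranges. The means of the other cell types were not used as covariates in the knee.

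Against the sham knees, which came from other rats, 30 genes were higher and none lower in the bled knee (median 0.63), where 19.9% of all probe sets were higher and 18.8% lower, and 23.5% and 13.4% after each array was centred on its median. All 27 genes called against the contralateral knee were among the 30, and Dnajb9, Ern1 and Ppp1r15a were added. The size was much the same for the leading genes: Creld2 1.69 ± 0.20, Sdf2l1 1.60 ± 0.16, Sec61b 1.26 ± 0.14, Hyou1 1.22 ± 0.10 and Dnajb11 1.21 ± 0.08. These comparisons share the bled knees. With quantile normalization 25 genes were higher than sham, where 19.1% of all probe sets were. Dnajb9, Ern1, Ppp1r15a, Syvn1 (0.13, adjusted p = 0.297) and Ssr3 (0.10, adjusted p = 0.271) were then not called. Without sham knee C5 the calls of Dnajb9 (0.26, adjusted p = 0.0673), Ern1 (0.12, adjusted p = 0.134), Ppp1r15a (0.32, adjusted p = 0.0892) and Syvn1 (0.20, adjusted p = 0.0982) were lost, and those of Ern1 and Syvn1 were also lost without bled knee K1, K2 or K4. For Ddit3 the sham knees lay between the bled and the contralateral ones, and the difference was not called (−0.33 ± 0.15, adjusted p = 0.0954), but Ddit3 was called lower without sham knee C5 (−0.43, adjusted p = 0.0308) or bled knee K2 (−0.45, adjusted p = 0.000807).

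The contralateral knee of the bled rats differed from the sham knee in 1 of the 37 genes, where 0.984% of all probe sets were higher and 0.831% lower (1.73% and 0.592% after centring). Herpud1, at 9.45, 9.61 and 9.79 against 8.89, 9.26 and 9.58, was higher by 0.40 ± 0.11 (adjusted p = 0.0443). The groups overlapped, and the call was lost without sham knee C5 (0.34, adjusted p = 0.13) and in most other fits with 1 knee array left out (called in 10 of 29). The leading chaperones differed little: Hspa5 by −0.10 ± 0.11, Creld2 by −0.05 ± 0.20 and Dnajb11 by −0.02 ± 0.08, and the median of the 37 was 0.05. Of the companion lists the regulators Creb3l1 (−0.81 ± 0.12) and Nfe2l2 (0.27 ± 0.06), the stress targets Aldh1l2 (−1.25 ± 0.26) and Slc6a9 (0.48 ± 0.12) and the export gene Sec24d (−0.31 ± 0.08) were called. Aldh1l2 was thus at its lowest in the contralateral knees, below both sham and bled knees.

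In the popliteal nodes the 2 sides of the bled rats could not be told apart in these genes. None of the 37 was called, as was no probe set in all (0% higher and 0% lower), and 2 of the 37 (Trib3 and Ppp1r15a) and 860 of 36685 probe sets had an unadjusted p under 0.05. Differences ran from −0.15 to 0.15 with 95% intervals between −0.38 and 0.36. Hspa5 measured 11.78, 12.16 and 12.47 on the bled and 11.60, 11.96 and 12.41 on the contralateral side (0.11 ± 0.09). Creld2 measured 7.95, 8.54 and 9.43 and 7.93, 8.60 and 9.61 (0.01 ± 0.17), so the sides shared one range.

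Nodes of both sides differed from the sham nodes. On the bled side 18 genes were higher and none lower (median 0.28), where 1.91% of all probe sets were higher and 2.34% lower (2.56% and 1.13% after centring), and on the contralateral side 20 were higher and none lower (median 0.28), where 2.22% were higher and 2.81% lower (2.87% and 1.2% after centring). These comparisons share the 9 sham nodes. All 18 were among the 20, and Edem1 and Ern1 were called only on the contralateral side, a difference that is not called between the sides. In other fits Edem1 was called on the bled side after centring (adjusted p = 0.0433) or with dim probe sets left out (0.0382). Derl1 was called there with quantile normalization (adjusted p = 0.0416) or dim probe sets left out (0.039). Dnajb11 was called there with dim probe sets left out (adjusted p = 0.0481) or array weights (0.0442). Spcs1 was called on both sides with dim probe sets left out (adjusted p = 0.046 and 0.0426). By role, 5 of 11 chaperones, 3 of 4 disulfide isomerases and 5 of 7 translocation genes were higher on either side, and 3 and 4 of 6 disposal genes.

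Asns had the largest called difference on the bled side, although it was not called in the knee. It measured 7.55, 7.92 and 8.31 in nodes of the bled side, 7.50, 7.93 and 8.21 on the contralateral side and 6.75, 7.37 and 7.56 in the sham nodes. Only the lowest nodes of the bled rats, both from rat K9, lay within the sham range, and the differences were 0.66 ± 0.11 and 0.59 ± 0.11 (adjusted p = 0.00155 and 0.00263). The other stress genes, Atf4, Ddit3, Trib3, Ppp1r15a and Chac1, were not called on either side. Chac1 was nevertheless called higher on the contralateral side with quantile normalization (0.32, adjusted p = 0.0338), centring (0.33, adjusted p = 0.0328), dim probe sets left out (0.28, adjusted p = 0.0353) or array weights (0.29, adjusted p = 0.0451), against 0.28 (adjusted p = 0.0642) as reported. It was also called without bled side node K10 (adjusted p = 0.0496) or contralateral node K8 (adjusted p = 0.0309).

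Sdf2l1 rose by 0.55 ± 0.15 and 0.64 ± 0.15 on the bled and the contralateral side, with sham nodes at 7.23, 8.08 and 8.48, bled side nodes at 8.10, 8.58 and 9.20 and contralateral nodes at 8.31, 8.58 and 9.50. Pdia4 measured 9.69, 9.94 and 10.37 on the bled side against 9.31, 9.55 and 9.67 in the sham nodes, with no overlap (0.53 ± 0.10, adjusted p = 0.00358). On the contralateral side its difference was 0.49 ± 0.10. Pdia6 and Hyou1 rose by 0.48 ± 0.09 and 0.48 ± 0.11 on the bled side and by 0.48 ± 0.09 and 0.40 ± 0.11 on the other. Hspa5 was not called on either side (0.28 ± 0.09, adjusted p = 0.0771, and 0.17 ± 0.09, adjusted p = 0.314), but on the bled side it was called after centring (0.34, adjusted p = 0.0499), with dim probe sets left out (0.28, adjusted p = 0.0443) and without bled side node K6 (0.32, adjusted p = 0.0414). Creld2 was not called either (0.58 ± 0.18 and 0.57 ± 0.18, adjusted p = 0.0608 and 0.0622). With rat as a random block, which pairs the nodes of 1 animal, Creld2 was called on both sides (adjusted p = 0.0445 and 0.0451), as it was after centring (0.0461 and 0.0482) and with dim probe sets left out (0.0351 and 0.0356). It was called as well without any 1 of bled side nodes K6 and K9 and contralateral node K3 (bled side) or contralateral nodes K6, K8 and K9 (contralateral side), at adjusted p = 0.037 to 0.0425. When each node array was left out in turn, 12 of the 18 and 12 of the 20 calls stood every time. Those lost at least once were Atf6, Edem2, P4hb and Sec61a1 on both sides, Dnajc3 and Sdf2l1 on the bled side, and Edem1, Ern1, Hyou1 and Ssr2 on the contralateral side.

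Without sham nodes C2 and C9, the 2 that stood apart, the counts were 11 and 12, and without C2 alone the contralateral count was 12. Sdf2l1 was then called on neither side (0.39, adjusted p = 0.146, and 0.47, adjusted p = 0.0675). Nor were Herpud1 (0.25, adjusted p = 0.0725, and 0.27, adjusted p = 0.0502), Edem2 (0.26, adjusted p = 0.147, and 0.27, adjusted p = 0.131), Sec61a1 (0.25, adjusted p = 0.092, and 0.23, adjusted p = 0.124) and Ssr2 (0.28, adjusted p = 0.0571, and 0.26, adjusted p = 0.0785). On the bled side Dnajc3 (0.28, adjusted p = 0.0871) and Sel1l (0.22, adjusted p = 0.0812) also lost their calls. On the contralateral side Hyou1 (0.37, adjusted p = 0.0726), Edem1 (0.21, adjusted p = 0.0872) and Ern1 (0.20, adjusted p = 0.145) lost theirs. All of these differences stayed above 0.

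Plasma cell genes moved in the same nodes. Of 8 measured, 6 (Mzb1, Derl3, Sdc1, Prdm1, Jchain and Pou2af1) were higher than sham on either side, and their mean was 8.45 to 9.31 on the bled side, 8.39 to 9.49 on the contralateral side and at most 8.42 in the sham nodes. The 4 B cell genes were not called. With the plasma cell mean as a covariate none of the 37 genes was called on either side, and of all probe sets only 15 (0.0409%) and 3 (0.00818%) stayed higher. The ranges of this mean barely overlap between bled and sham rats, so plasma cell content and the procedure cannot be told apart. Fat and macrophage genes moved in these nodes too. Of 6 adipocyte genes 2 were higher than sham on the bled and 4 on the contralateral side, and their mean was 6.83 to 8.90 in the sham nodes, 6.96 to 9.32 on the bled and 8.37 to 9.20 on the contralateral side. With the adipocyte mean as a covariate 7 and 0 of the 37 genes were called, where 0.469% and 0.0791% of all probe sets were higher. Of 6 macrophage genes 2 were higher on either side, and their mean was 9.72 ± 0.21 (SD, n = 9) in the sham nodes, 10.04 ± 0.30 on the bled and 10.06 ± 0.25 on the contralateral side (n = 11 each). Of 8 fibroblast and synovial lining genes 1 and 4 were higher. The part of the macrophage and fibroblast genes in the node results was not tested.

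**Figure D5:**
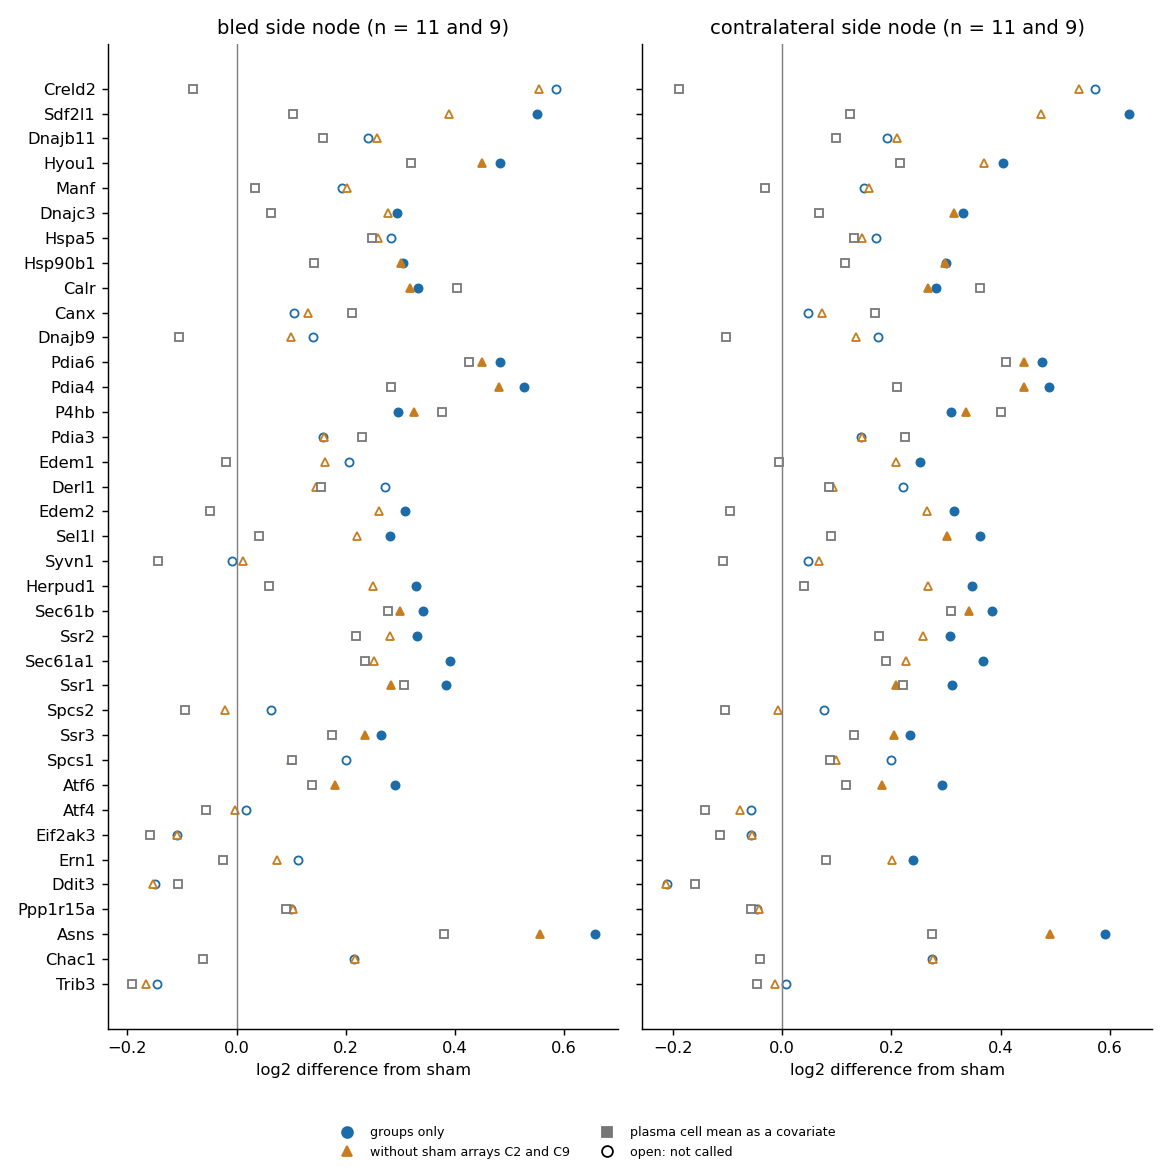
Log2 difference of the 37 genes between the popliteal nodes of the bled rats and the sham nodes, on the bled side (left) and the contralateral side (right), with filled marks for called genes. Circles are from the model of the groups, with 18 and 20 called, triangles from the model without sham nodes C2 and C9, with 11 and 12 called, and squares from the model with the plasma cell mean as a covariate, with none called.

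The side difference was tested between the tissues in one model of all 60 arrays. The bled against contralateral difference of the knee was above that of the node in 27 of the 37 genes and below it in 1, Ddit3 (−0.90 ± 0.17, adjusted p = 1.23e-05), where 15.5% of all probe sets were above and 12.4% below. Creld2 (1.73 ± 0.25), Sdf2l1 (1.44 ± 0.20), Sec61b (1.25 ± 0.14) and Dnajb11 (1.18 ± 0.10) stood apart most. For bled against sham 22 genes were above and 1 below, where 18% of all were above and 13.2% below. The 1 below was Asns (−0.66 ± 0.17, adjusted p = 0.00125).

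For contralateral against sham 1 gene was above, Ddit3 (0.73 ± 0.18, adjusted p = 0.0243), and 3 were below, Asns (−0.74 ± 0.17, adjusted p = 0.0116), Ssr2 (−0.39 ± 0.10, adjusted p = 0.0336) and Ssr3 (−0.32 ± 0.08, adjusted p = 0.0243), where 1.14% of all were above and 0.891% below. Asns thus differed between the tissues in both comparisons with sham. Without the 3 sham arrays that stood apart the calls of Ddit3 (0.63, adjusted p = 0.0798) and Ssr2 (−0.36, adjusted p = 0.0875) were lost, and for bled against sham that of Calr was lost (0.24, adjusted p = 0.07) and Spcs1 was called above (0.22, adjusted p = 0.0162). Ssr2 and Ssr3 were not called after centring (adjusted p = 0.0809 and 0.075). With rat as a random block Ssr1 was also called below (−0.33, adjusted p = 0.0405) and, for bled against sham, Pdia4 above (0.34, adjusted p = 0.0431).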

How the data were processed

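RNA of 60 samples was measured on Affymetrix rat gene arrays, 1 array per sample, 29 knees and 31 nodes. The authors deposited log2 expression values. Per the submitters' processing notes, the tools were RMA and Affymetrix Expression Console 1.4.46. Values ran from 1.62 to 14.03 with array medians of 5.64 to 5.94. Whether both tissues were normalized together, and any scan batch, is not given in the sources used here. Sample labels gave the group, side and rat.

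Differences of group means were computed with limma 3.58.1 in R 4.3.3 with data.table (version 1.17.8): 1 model of 3 groups per tissue over all 36685 probe sets, and contrasts between tissues in 1 model of all 60 arrays. Calls used Benjamini-Hochberg adjusted p under 0.05. SE and 95% intervals are limma's. Figures and promoter searches used Python 3.11.15, numpy 2.4.6, pandas 2.3.3 and matplotlib 3.10.9. The bled against contralateral comparison of each tissue was run on simulated data with independent noise in each array. Those data held no correlation between the sides of a rat, and the other comparisons were not simulated. The number of arrays limits the precision.

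The genes and lists were chosen with earlier results of these data known. Every one of the 38 genes was to be named. Of each companion list up to 4 genes with the largest called change between the knees, and up to 3 for contralateral against sham knee, were named.

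Per the labels both sides belong to 1 animal, which pairs bled and contralateral samples. In the knee, deviations from the group means correlated between sides at −0.104 to 0.211, with a mean of 0.069. In the node they correlated at 0.121 to 0.324, with a mean of 0.233. The reported models had no rat block. Alternatives were rat as a block, only the compared groups, quantile normalization, median centring, dim probe sets left out, a trend with a robust prior, array weights, marker means as covariates, the sham arrays that stood apart left out and each array left out. The plasma cell mean without Derl3 was added after seeing the data. The mean of several probe sets per gene did not apply, since each gene had 1. The promoter site of 1 further gene is not reported here.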

Additional observations from a re-analysis of the deposited data

Results flagged for a closer look

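In 13 of the 74 sham groups tested (37 genes in 2 tissues) 1 array stood far from the rest by Dixon's criterion, where chance gives about 1 in 20, and all 13 came from 2 arrays. The sham knee of rat C5 was the low one for Sdf2l1 (6.31), Sec61b (9.47), Ern1 (7.61), Atf4 (9.97) and Ppp1r15a (7.27). The sham node of rat C9 was high for the chaperone gene Canx (11.54) and the isomerase gene P4hb (11.46), and low for Edem1 (10.13), Sel1l (9.42), Derl1 (7.45), Sec61a1 (10.14), Ssr1 (9.24) and Atf6 (9.26). It was thus far to opposite ends for genes of related roles. What set these arrays apart was not tested. The criterion was applied to the sham groups only.

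The other results listed here are differences between the tissues: the change in the knee minus that in the node, tested in limma over all probe sets. For bled against contralateral the chaperone genes were above 0 at 1.73 (Creld2), 1.44 (Sdf2l1), 1.18 (Dnajb11), 1.04 (Hyou1), 1.01 (Manf), 0.95 (Dnajc3), 0.73 (Hspa5), 0.66 (Hsp90b1), 0.51 (Calr) and 0.40 (Canx). The disulfide isomerases were at 0.88 (Pdia6), 0.73 (Pdia4), 0.63 (P4hb) and 0.40 (Pdia3), and the disposal genes at 0.83 (Edem1), 0.52 (Edem2), 0.46 (Derl1), 0.37 (Sel1l) and 0.32 (Syvn1). Translocation genes were at 1.25 (Sec61b), 0.84 (Ssr2), 0.77 (Sec61a1), 0.68 (Ssr1), 0.57 (Spcs2), 0.30 (Ssr3) and 0.29 (Spcs1). Atf6 was at 0.49, and Ddit3 at −0.90 was the one gene below 0.

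For bled against sham the chaperone genes were at 1.11 (Creld2), 1.05 (Sdf2l1), 0.97 (Dnajb11), 0.76 (Manf), 0.74 (Hyou1), 0.57 (Dnajc3), 0.46 (Hspa5), 0.39 (Hsp90b1), 0.35 (Canx) and 0.27 (Calr). The isomerases were at 0.50 (Pdia6), 0.33 (P4hb) and 0.30 (Pdia3), and the disposal genes at 0.67 (Edem1), 0.49 (Edem2) and 0.40 (Derl1). Sec61b was at 0.92, Spcs2 at 0.64, Ssr2 at 0.45, Sec61a1 at 0.37, Ssr1 at 0.35 and Atf6 at 0.28. Asns, at −0.66, was below 0 because it was higher than sham in the nodes (0.66) and level in the knee (0.00). For contralateral against sham Ddit3 was at 0.73, Asns at −0.74, Ssr2 at −0.39 and Ssr3 at −0.32.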

How the results depend on the processing

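All 28 calls between the bled and the contralateral knee stood when each of 29 knee arrays was left out in turn, and 23 of the 28 stood under every alternative as well; of the 30 calls against sham, 26 and 23 did. With rat as a replicate block the higher count between the knees was 27 (random) and 28 (fixed), against 27 without the block, and the lower count was 2 with the random block, where Herpud1 joined Ddit3 at adjusted p = 0.0408; the node counts against sham were 19 and 21, where Creld2 joined on both sides, and the block changed no other call than those of Atf4, Ssr1 and Pdia4 given above. Herpud1 was also called lower, for a count of 2 against 1, with only the compared groups, quantile normalization or dim probe sets left out. It joined as well with a trend with a robust prior, array weights or the sham arrays left out. With the plasma cell covariate the count was 2 through Trib3 (−1.04, adjusted p = 0.0293), and it was 1 to 3 with single arrays left out. Against sham the lower count was 1, against 0, with array weights or the sham arrays left out, and 0 to 1 with single arrays left out. The contralateral against sham knee count was 2 with only the compared groups or centring, 0 with quantile normalization, array weights or the sham arrays left out, and 0 to 2 with single arrays left out.

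In the nodes the counts against sham on the bled and the contralateral side were 18 and 20 as reported, 11 and 12 without sham nodes C2 and C9, 7 and 0 with the adipocyte covariate, 0 and 0 with the plasma cell covariate with or without Derl3, and 12 to 21 on each side with single arrays left out. With only the compared groups they were 14 and 15, where 1.12% and 1.65% of all probe sets were higher. With dim probe sets left out they were 24 and 23, where 5.27% and 5.99% were. With the plasma cell covariate Edem2 turned to −0.0497 and −0.0958 on the bled and the contralateral side (−0.0347 and −0.0852 without Derl3 in the mean) and Edem1 to −0.00635 on the contralateral side. The covariate also left few calls among all probe sets, as given above. Between the tissues, the count below for bled against contralateral was 2, against 1, with quantile normalization. For contralateral against sham the count below was 5, against 3, with quantile normalization or dim probe sets left out and 1 with centring, and the count above was 0, against 1, without the sham arrays that stood apart. The cause of these shifts was not tested. The groups of 7 to 11 arrays limit what small differences could be called.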
